A study of Mus musculus with 18 samples.

Results

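A set of 6 libraries of control C2C12 cells is described here, 3 from growth medium (GM) and 3 from differentiation medium (DM3), out of 18 libraries in the series. C2C12 is a line of mouse myoblasts, the proliferating cells that stop dividing and fuse into myotubes once serum is lowered, and the stock used here was labelled PAX7 NEG. GM cells grew in 20% fetal bovine serum to about 80% confluence, and DM3 cells had spent 3 days in 2% horse serum. The amount and the species of serum changed together, along with the time in culture, and cannot be told apart. The control cells carried no MUNC overexpression and were labelled wild type. The other 12 libraries came from the same line overexpressing spliced (MUNC spliced) or genomic (MUNC genomic) MUNC, a noncoding RNA from a region upstream of Myod1, in the same media and with 3 replicates per group. Libraries were chosen by title. Another label calls all 3 control DM3 libraries myoblasts, while a tissue label calls them myotubes. The labels name the replicates biological, and nothing says that they came from separate cultures, so p-values measure the spread between these libraries.

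Serum holds the growth factors that keep a myoblast cycling. Their receptors act through ERK, which drives the immediate early genes, and through the kinases Akt and mTORC1, which drive ribosome production and nucleotide and lipid synthesis. Without them the FoxO factors, which Akt holds in the cytoplasm, and Tfeb, which mTORC1 holds there, enter the nucleus and switch on atrophy, autophagy and lysosomal genes. In an ordinary myoblast Myod1 and Myog then turn on the contractile and synaptic genes of the muscle fibre. These roles are background.

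These control cells had almost no Myod1, the master regulator of the muscle lineage. The 3 GM libraries held 5, 0 and 0 reads of it and the 3 DM3 libraries 4, 0 and 12 reads. Myf5, its close relative, was the main myogenic factor present, at 67.8, 81.5 and 66 FPM in GM and 95, 109.9 and 105 FPM in DM3, a rise of 0.52 ± 0.17 (log2, SE; limma adjusted p = 0.0151) whose call was lost without control GM replicate 3 (adjusted p = 0.0548) or control DM3 replicate 2 (adjusted p = 0.054). FPM is fragments scaled for library size, and all log2 changes are DM3 minus GM on log2(FPM + 1), which understates the change of genes near 0. Pax7 had at most 4 reads and Msc had 0 reads in any control library. Of 9 myoblast markers, 7 were tested and 5 rose (29.6% of all genes rose). The summed level of the 9 was 331 to 463 FPM in GM and 675 to 1009 FPM in DM3. Itga7 was the largest part of that sum, at 140 to 221 FPM in GM and 346 to 553 FPM in DM3. Among skeletal muscle fibre markers, Myh4 had 0 reads in every library and Ckm at most 3 reads, and the 10 markers together summed to 13.2 to 32.5 FPM in GM and 12 to 24 FPM in DM3. That sum hid opposite moves: Acta1, its largest part, fell (11.2 to 31 FPM in GM and 3.43 to 5.68 FPM in DM3), while the giant sarcomere protein Ttn (0.353 to 0.478 FPM in GM and 1.79 to 4.89 FPM in DM3), the fast troponin Tnnt3 (0.138 to 0.495 FPM in GM and 1.69 to 8.4 FPM in DM3) and the fast light chain Mylpf (0.496 to 0.615 FPM in GM and 1.86 to 4.66 FPM in DM3) rose from low levels. Fibroblast markers had a high sum in both media, but not every member was abundant. The sum of 7282 to 11564 FPM in GM and 10922 to 12391 FPM in DM3 was mostly Col1a1, Col1a2 and Col3a1. Pdgfrb stood at 188 to 277 FPM and Pdgfra at 6.07 to 12 FPM. Lum reached at most 1.75 FPM and Dpt 1.64 FPM, and Thy1 had at most 2 reads in a library. The 6 endothelial markers summed to at most 0.761 FPM, the 6 epithelial markers to at most 0.847 FPM, the 6 Schwann cell markers to at most 1.9 FPM and the 6 macrophage markers to at most 6.35 FPM. Other lists were not near 0, each through 1 to 3 members. The smooth muscle and pericyte markers summed to 1209.7 to 1835 FPM in GM and 1403 to 1459 FPM in DM3, mostly Acta2, with Myh11 at most 0.276 FPM. The osteoblast sum of 75.5 to 102 FPM in GM and 73.4 to 107 FPM in DM3 was nearly all Runx2, the chondrocyte sum of 45.6 to 63.6 FPM in GM and 65.9 to 84 FPM in DM3 nearly all Sox9, the tenocyte sum of 39.8 to 51.3 FPM in GM and 44.6 to 60.2 FPM in DM3 mostly Scx, and the neuronal sum of 73.2 to 125 FPM in GM and 60.9 to 73 FPM in DM3 Syn1 and Tubb3, while Alpl, Ibsp, Dlx5 and Thbs4 had 0 reads. Adipocyte markers summed to 7.01 to 11.2 FPM in GM and 8.03 to 10.5 FPM in DM3, from Pparg, Fabp4 and Cebpa, and Adipoq, Lep and Cidec had 0 reads. The part of these lists in the results was not tested.

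Control libraries held 51894879 to 68235989 reads, and a gene with 0 reads could lie at up to 0.0592 FPM (3 reads). Over genes, r was 0.988 to 0.996 between libraries of the same medium and 0.907 to 0.949 across media. Control GM replicate 3 stood low for a set of matrix and signalling genes (Ogn, Dcn, Igfbp5, Mgp), and control GM replicate 2 stood high for interferon genes (Ifi44 at 47.4 FPM against 5.31 and 2.92 FPM). Where leaving out 1 control library moved a printed count or median of a list by over 1.5 times, the value without it is given beside it.

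Of 13869 genes tested, 8078 (58.2%) differed between the media at an adjusted p under 0.05, 4111 (29.6%) higher and 3967 (28.6%) lower in DM3. With a change of at least 1 on the log2 scale as a further condition, 1332 genes (9.6%) rose and 1260 (9.09%) fell. The libraries of the groups did not overlap in 8654 genes (62.4%), so groups that stand apart in a gene named below are the common case. Cell cycle genes fell almost as a body, 197 of 199 with a median of -2.78, and 143 of 153 interferon-stimulated genes rose with a median of 2.69. The exceptions in the cell cycle list were Psrc1 and Tmpo, which were not called. In the interferon list 8 genes were not called. Ifi27 and Ifi30 of that list fell (only 1 fell without control GM replicate 1 or DM3 replicate 3). These lists held 193 of the 1260 genes that fell by at least 1 (15.3%). They held 137 of the 1332 that rose by as much (10.3%). Neither list is complete. Most of the 12 deepest falls outside them are genes of DNA replication, repair or mitosis, and the interferon-inducible Ifi47 lies outside them too. Both shares are thus lower bounds. The other 41 lists held 216 of the genes that rose and 157 of those that fell, and most, 979 (73.5%) and 910 (72.2%), were in none of the 43 lists. With both lists set aside, 7736 genes were called, 3968 higher and 3768 lower. Because 58.2% of genes passed the test, a list is read below by its counts and its median against those of all genes tested (29.6% higher, 28.6% lower, median 0.02), and nothing is called particular to a list.

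**Figure D1:**
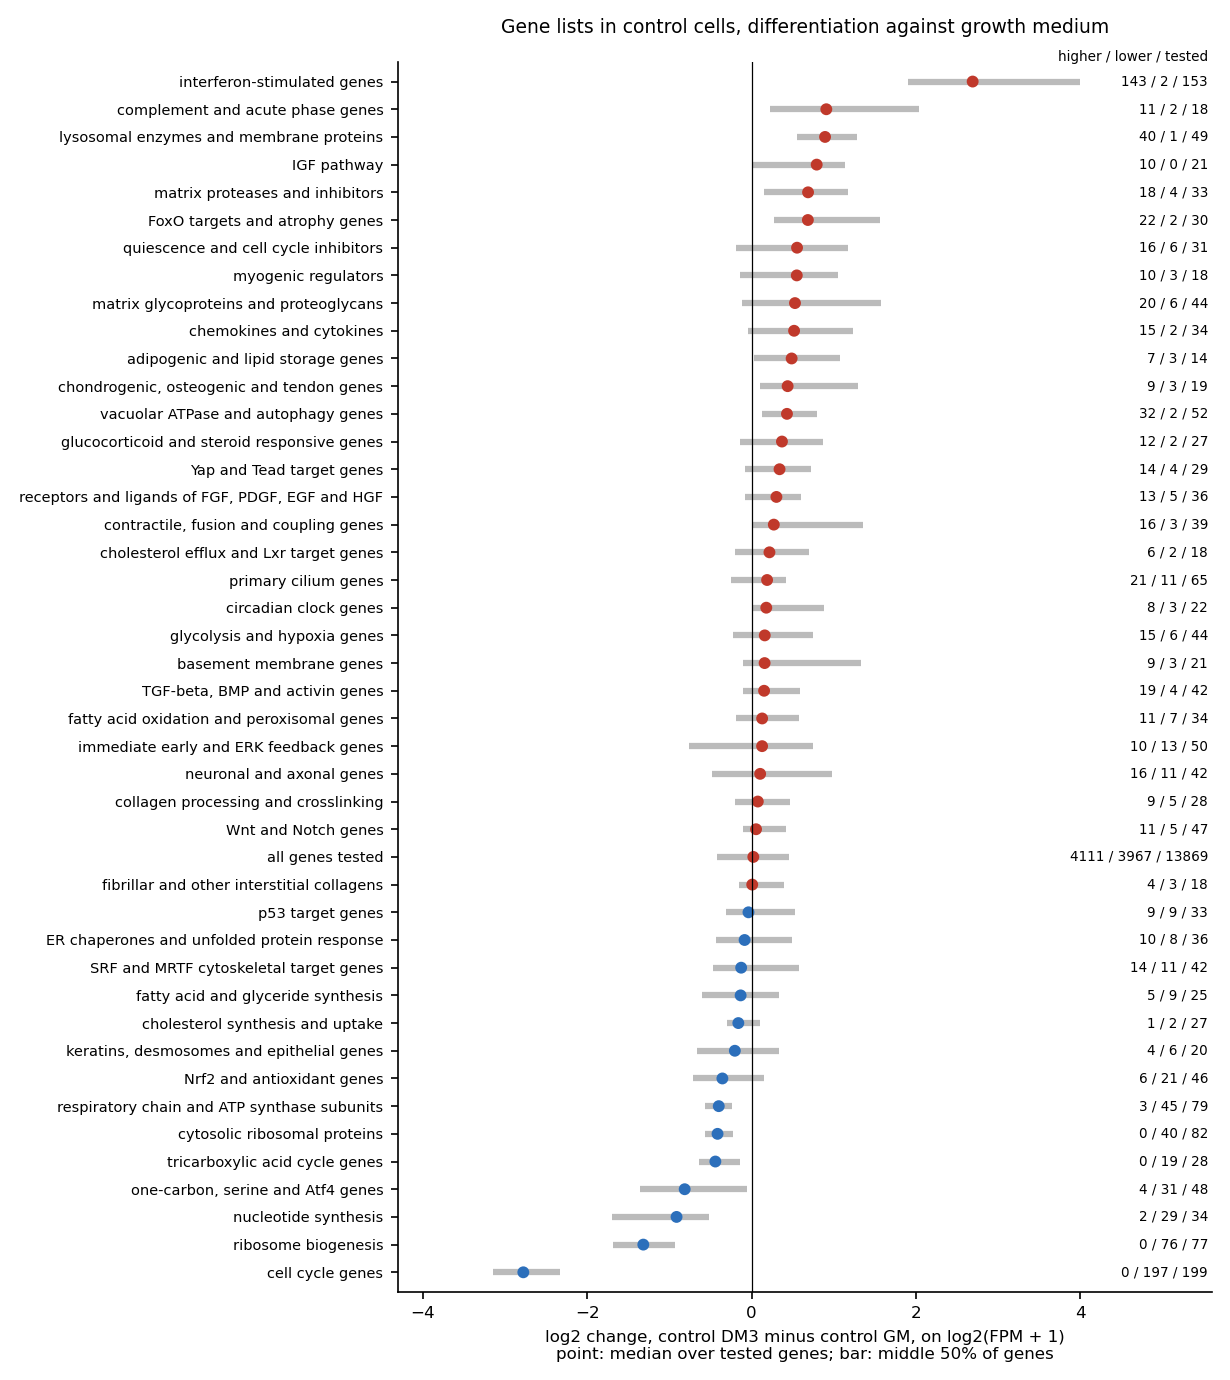
Median log2 change (points) and middle 50% of the tested genes (bars) for 43 gene lists and all genes, control DM3 minus GM, with the number called higher, called lower and tested at the right. Lysosomal, complement, FoxO and matrix lists sit above 0, and ribosome biogenesis (-1.32), nucleotide (-0.91) and one-carbon lists (-0.81) sit below it, next to the cell cycle list at -2.78.

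Outside those lists, the largest rise belonged to Chrng, the fetal gamma subunit of the muscle acetylcholine receptor. It measured 0.273, 0.442 and 0.0768 FPM in GM and 24.9, 60.4 and 66.4 FPM in DM3 (log2 change 5.24 ± 0.43 SE, adjusted p = 1.73e-07). All DM3 libraries were far above the GM libraries, which had 46 reads in all. Next came Plac8, a small cysteine-rich protein, at 5.96, 6.14 and 2.2 FPM in GM and 253, 180.5 and 178 FPM in DM3. Txnip, an arrestin that restrains glucose uptake and binds thioredoxin, followed at 8.31, 35.4 and 8.39 FPM in GM and 480.3, 702 and 433 FPM in DM3. Its rise of 5.17 was 5.82 without control GM replicate 2, the highest of the GM libraries. The slow skeletal troponin Tnnt1 measured 1.13, 0.425 and 0.0922 FPM in GM and 19.9, 44 and 40.5 FPM in DM3. Cp, the copper-carrying ferroxidase ceruloplasmin, measured 8.17 to 30.1 FPM in GM and 286 to 372 FPM in DM3. The other large rises were of Bmf, a BH3-only protein that promotes apoptosis (4.28), Xdh, which breaks purines down to urate (4.25), the aggrecan-cutting protease Adamts4 (4.15), the sodium channel gene Scn7a (4.09), the elastic fibre protein Efemp1 (4.06), Rgs2, a brake on G protein signalling (4.05, or 3.42 without control GM replicate 3), and Ifi47, an interferon-inducible GTPase that the interferon list did not hold (4.03). The choice of these 12 genes required groups that do not overlap and a higher group that averages at least 5 FPM.

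The deepest fall was of a neurofilament gene, Nefm, at 136, 106 and 242 FPM in GM and 2.9, 4.14 and 4.46 FPM in DM3 (log2 change -4.997 ± 0.25, adjusted p = 2.04e-09). Its partner Nefl fell, at 206 to 329 FPM in GM and 11.1 to 18.1 FPM in DM3. Krt14, the keratin of basal epithelial cells, measured 53, 23.5 and 65.5 FPM in GM and 0.499, 0.454 and 0.332 FPM in DM3. Pcolce2, which speeds the trimming of procollagen ends, measured 61.9, 43.3 and 86 FPM in GM and 3.59, 1.7 and 1.22 FPM in DM3. The remaining 8 of the 12 deepest falls are genes of DNA replication, repair or mitosis that the cell cycle list did not hold: Fignl1, Fancb, Aunip, Polq, Dscc1, Recql4, Fbxo5 and Dna2, at log2 changes of -3.68 to -3.23. In all 12 genes every GM library was above every DM3 library, which the choice of genes required.

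**Figure D2:**
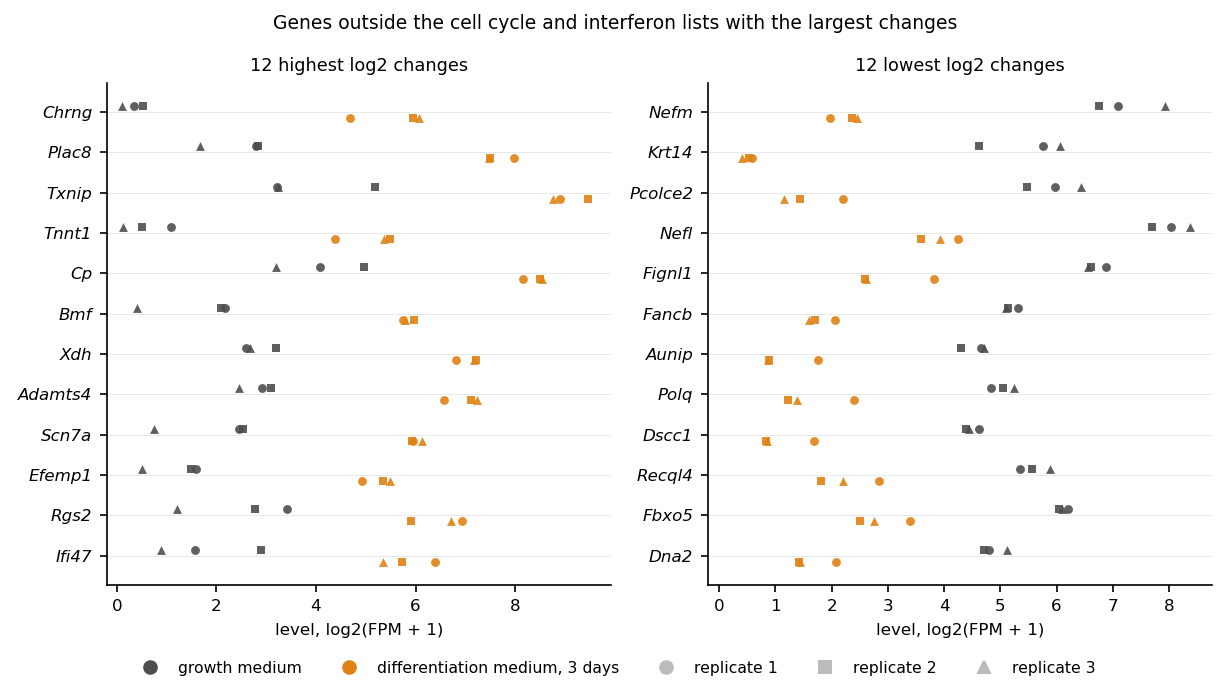
Level in each control library, on log2(FPM + 1), of the 12 genes with the highest and the 12 with the lowest log2 change outside the cell cycle and interferon lists. The 24 genes were chosen so that GM libraries (grey) and DM3 libraries (orange) do not overlap.

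Lysosomal genes rose. In bulk RNA, more cells of a kind and more RNA per cell cannot be told apart, here and throughout. Of 49 tested lysosomal enzymes and membrane proteins, 40 rose and 1 fell, with a median of 0.89 (all genes 0.02). Grn, the secreted precursor of lysosomal granulins, led with 201, 213 and 231 FPM in GM and 919.8, 1081 and 1013 FPM in DM3, a rise of 2.22 ± 0.18 (adjusted p = 1.69e-07). Gaa, which breaks down glycogen in the lysosome, stood at 117, 123 and 122 FPM in GM and 365, 423 and 479 FPM in DM3. The major membrane protein Lamp2 measured 252 to 345 FPM in GM and 789 to 1025 FPM in DM3, and the cathepsin Ctsd 342 to 389 FPM in GM and 762 to 947 FPM in DM3. Each DM3 library held more of these than any GM library (groups do not overlap in 62.4% of all genes tested). The single gene that fell was Gusb, beta-glucuronidase, at -1.16. Over the whole list the library means were tight, 5.44 to 5.52 on the log2 scale in GM and 6.36 to 6.37 in DM3.

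Tfeb and its relatives bind the CLEAR element, TCACGTGA. This 8-base word, which reads the same on both strands and holds the Myc E-box CACGTG, was found in the promoter window of 5 of 38 lysosomal genes with a RefSeq window on GRCm38.p6 (13.16%), against 1.125% of 27025 genes with a window and 2.17% of the 9814 that were also tested. A window runs from 250 bases before to 50 after the start site. Of the 5, Ctsa, Ctsd, Gla and Mcoln1 rose and Cln3 was not called. The element was thus in 4 of the 32 windows whose gene rose (12.5%). Over all genes that rose the share was 2.126%. As 32 of the 38 rose, the match cannot be set against the direction of change. A match is a description of letters, not of binding. The stretches around it in Ctsd, the calcium channel gene Mcoln1 and the galactosidase gene Gla are shown because their genes rose together. They end at or before the start site and have the element in capitals:
Ctsd (chr7:142387869-142387976, minus strand): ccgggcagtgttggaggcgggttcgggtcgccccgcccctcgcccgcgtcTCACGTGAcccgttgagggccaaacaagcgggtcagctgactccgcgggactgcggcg
Mcoln1 (chr8:3500423-3500518, plus strand): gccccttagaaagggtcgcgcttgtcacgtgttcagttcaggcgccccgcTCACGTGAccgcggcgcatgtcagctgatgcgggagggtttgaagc
Gla (chrX:134601143-134601255, minus strand): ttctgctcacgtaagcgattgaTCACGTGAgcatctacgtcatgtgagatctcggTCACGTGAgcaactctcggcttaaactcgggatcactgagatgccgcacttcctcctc

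Autophagy genes rose by less. Of 52 genes of the vacuolar ATPase and of autophagy, 32 rose and 2 (Atp6v0e2 and Atg3) fell, with a median of 0.43. Only 1 fell without control GM replicate 1, DM3 replicate 2 or DM3 replicate 3. Map1lc3a, one of the LC3 proteins that coat the autophagosome, measured 33.6, 33.9 and 18.2 FPM in GM and 142, 184 and 169.8 FPM in DM3. Atg13, of the initiating kinase complex, rose by 1.29, at 32.5 to 33.7 FPM in GM and 74.3 to 92.6 FPM in DM3. Atg9b rose by 1.40, a call that was lost without control GM replicate 1 (adjusted p = 0.0512). Among genes in no list, named after their values were seen, the autophagy-related Calcoco1 (2.93) and Trp53inp2 (2.90) rose too. Tfeb itself was not called.

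FoxO target and atrophy genes rose in 22 of 30 cases and fell in 2 (Eif4ebp1 and Sod2), with a median of 0.68. After Txnip, the largest changes were of Pik3ip1, an inhibitor of PI3 kinase, at 3.52, 3.72 and 1.51 FPM in GM and 25.9, 28.9 and 22.4 FPM in DM3, and of Fbxo32, the atrophy ubiquitin ligase atrogin 1, at 24.7, 38.3 and 34.2 FPM in GM and 164, 290.0 and 212 FPM in DM3 (log2 change 2.72 ± 0.32, adjusted p = 3.87e-06). All DM3 libraries were well above the highest GM library for both. Trim63, the companion ligase MuRF1, was called higher at 1.31 but stayed low, at 0.0177 to 0.0512 FPM in GM and 1.31 to 1.99 FPM in DM3. Foxo3 rose by 1.68. Foxo1 rose by 0.49, a call that was lost without control GM replicate 3 (adjusted p = 0.138), DM3 replicate 1 (0.0528) or DM3 replicate 2 (0.0748).

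Genes that build ribosomes fell with hardly an exception. Of 77 ribosome biogenesis genes, 76 fell and 0 rose, the other being Imp3, and the median was -1.32. Dkc1, the pseudouridine synthase of the H/ACA snoRNPs, measured 252, 188 and 264 FPM in GM and 45, 30.7 and 25.3 FPM in DM3 (log2 change -2.79 ± 0.27, adjusted p = 6.53e-07). Nhp2, of the same particle, changed by -2.71, and Nop58, the core protein of the box C/D particles, by -2.25. Ncl, nucleolin, measured 2202, 1987 and 2560.4 FPM in GM and 808, 570.4 and 523 FPM in DM3. No GM and DM3 libraries overlapped for these 4, as in 62.4% of all genes tested. The list's library means were 6.58 to 7.04 in GM and 5.38 to 5.53 in DM3. The ribosomal proteins themselves fell less and less uniformly: 40 of 82 fell, 0 rose, and the median was -0.41. Only 19 of them fell without control GM replicate 1, 26 without GM replicate 3, 23 without DM3 replicate 2 and 19 without DM3 replicate 3. Rps2 was among the larger changes (-1.18), with Rps27l (-0.97). The latter was not called without control DM3 replicate 3 (adjusted p = 0.0738) or GM replicate 1 (adjusted p = 0.0694).

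Myc, the transcription factor known for driving these genes, fell with them, at 99.8, 107 and 139 FPM in GM and 40.1, 37 and 37.7 FPM in DM3 (log2 change -1.55 ± 0.25, adjusted p = 6.60e-05). Its E-box CACGTG, the same on both strands, was present in 15 of 68 ribosome biogenesis windows (22.06%). All 15 genes fell, but so did 67 of the 68, so the match cannot be set against the direction of change. The share was 8.093% over all windows, 11.54% over those of tested genes and 12.53% over those of 2880 genes with a window that fell. Examples, with the E-box in capitals, are Imp4 and Nop2, which process ribosomal RNA, and Nol11, which acts in its transcription. Their log2 changes were -1.30, -1.68 and -0.81:
Imp4 (chr1:34439658-34439763, plus strand): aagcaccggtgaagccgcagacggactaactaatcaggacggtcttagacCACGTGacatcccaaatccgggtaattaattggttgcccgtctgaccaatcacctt
Nop2 (chr6:125131773-125131878, plus strand): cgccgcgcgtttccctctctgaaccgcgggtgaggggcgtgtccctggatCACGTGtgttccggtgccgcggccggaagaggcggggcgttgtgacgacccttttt
Nol11 (chr11:107189382-107189474, minus strand): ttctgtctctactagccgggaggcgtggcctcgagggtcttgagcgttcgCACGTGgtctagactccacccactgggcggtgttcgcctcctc

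Several families of gene names with a common prefix, set up after values had been seen, fell in most members (28.6% of all genes fell). Of 77 tested mitochondrial ribosomal protein genes 67 fell and 0 rose (median -0.76), of 51 translation initiation factors 36 fell and 1 rose (-0.71), of 51 splicing factors 44 fell and 1 rose (-0.90), and of 19 nucleoporins 17 fell and 0 rose (-1.06). Eif5a, the factor whose hypusine is made from spermidine, was one of the deepest (-2.19, at 1357 to 1758 FPM in GM and 318 to 373 FPM in DM3). RNA polymerase II and III subunits fell in 21 of 23 cases and rose in 1. The RNA exosome fell in 8 of 9 and rose in 0. The CCT chaperonin, which folds actin and tubulin, fell in 8 of 9 and rose in 1 (median -1.22). Proteasome subunits fell in 29 of 37 cases, while 3 rose: Psmb8, Psmb9 and Psmb10, the subunits of the interferon-induced immunoproteasome. Not every family set up in this way fell. Of 215 solute carriers 52 rose and 57 fell (median 0.01), and of 59 Rab GTPases 26 rose and 9 fell (0.23).

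Nucleotide synthesis fell in 29 of 34 genes, with a median of -0.91. The 2 that rose were Adssl1, the muscle form of adenylosuccinate synthase, and Ctps2. Nme1, a nucleoside diphosphate kinase, measured 122, 71.1 and 115 FPM in GM and 19.6, 10.3 and 8.53 FPM in DM3. Umps, which completes UMP synthesis, measured 100.2, 86.1 and 125 FPM in GM and 29.3, 19.9 and 20.2 FPM in DM3, and Ctps, which makes CTP, fell by 2.08. The groups were well apart in each. One-carbon, serine and Atf4-dependent genes fell in 31 of 48 cases and rose in 4 (median -0.81). Shmt2, which moves a carbon from serine to folate in the mitochondrion, measured 363, 448 and 440.2 FPM in GM and 90.4, 69.2 and 72.7 FPM in DM3 (log2 change -2.42 ± 0.21, adjusted p = 2.96e-07). Mthfd2 and Shmt1 changed by -2.20 and -2.31. Atf4 itself fell by 0.77. The 4 that rose, Ddit3, Nupr1, Ddit4 and Cebpb, are stress genes rather than enzymes. Among 10 polyamine genes, named after their values were seen, the biosynthetic enzymes Odc1 (-3.03, at 297 to 484 FPM in GM and 38.7 to 59.4 FPM in DM3), Srm (-2.59) and Amd1 (-1.68) fell, and the catabolic Sat1 (0.68) and Smox (0.81) rose.

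**Figure D3:**
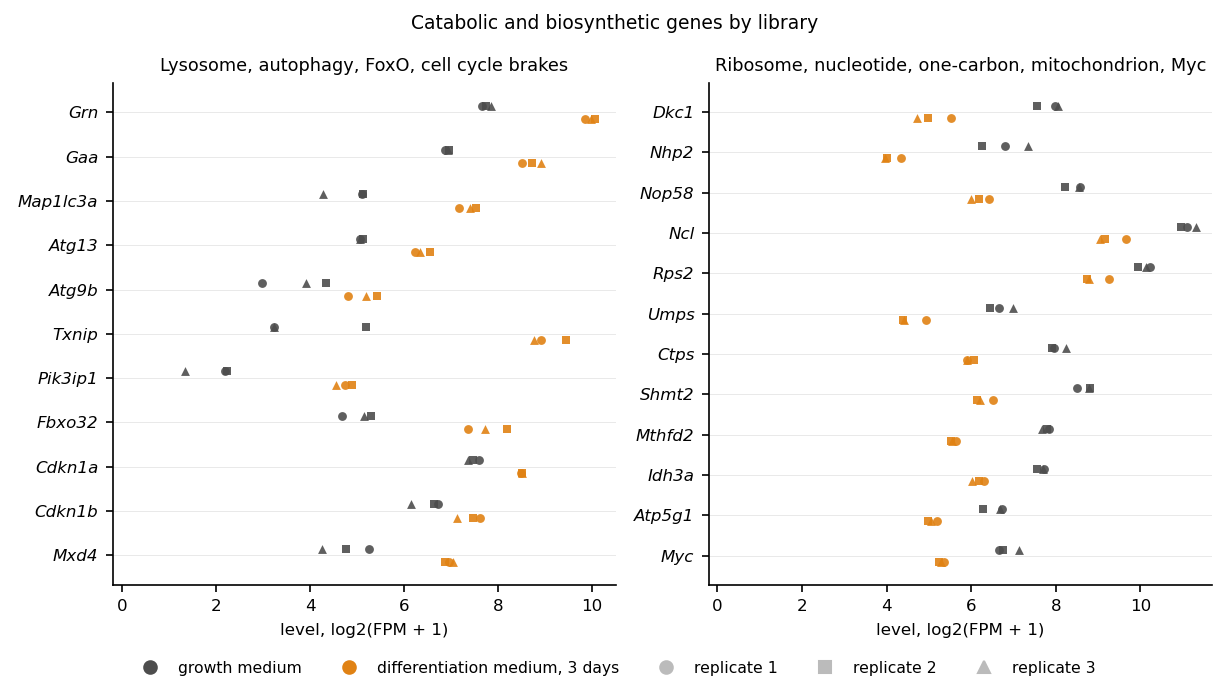
Level in each control library, on log2(FPM + 1), of degradative and growth-restraining genes (left) and of biosynthetic genes with Myc (right). Every gene at the left is higher, and every gene at the right lower, in all 3 DM3 libraries (orange) than in all 3 GM libraries (grey). The groups do not overlap in 62.4% of all genes tested.

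Respiratory chain and tricarboxylic acid cycle genes fell by smaller steps than the mitochondrial ribosomal proteins above. Of 79 subunits of the respiratory chain and ATP synthase, 45 fell and 3 rose (Ndufv3, Ndufa6 and Ndufs3), with a median of -0.40. Without control GM replicate 1 the median was -0.25, with 32 lower and 5 higher. Atp5g1, of the ATP synthase ring, measured 105, 76.5 and 102 FPM in GM and 35.5, 30.3 and 31.9 FPM in DM3, and Cycs, cytochrome c, fell by 1.28. Tricarboxylic acid cycle genes fell in 19 of 28 cases and rose in 0 (median -0.44; 1 rose without control DM3 replicate 1, with the block, after scaling to equal sums and in DESeq2), led by Idh3a at 209, 187 and 206 FPM in GM and 78.4, 71.9 and 63.8 FPM in DM3. Against this, Ppargc1a, the coactivator known for promoting mitochondrial biogenesis, measured 0.666, 0.92 and 0.446 FPM in GM and 13.9, 10.5 and 11.9 FPM in DM3 (log2 change 2.97 ± 0.11, adjusted p = 9.02e-11). Fatty acid oxidation and peroxisomal genes had 11 higher (32.4%) and 7 lower (20.6%) of 34, against 29.6% and 28.6% of all genes. The peroxisomal Acox3 (1.39) and Pex11a (1.34) were among the rises.

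Glucose genes did not move together. Of 44 glycolysis and hypoxia genes 15 rose and 6 fell, with a median of 0.16. The largest rise was of Car9, a carbonic anhydrase known as a hypoxia marker, at 3.55, 4.5 and 2.38 FPM in GM and 27.6, 65.4 and 90.5 FPM in DM3. Eno2 rose by 2.29 and Pdk2, a kinase that inhibits pyruvate dehydrogenase, by 2.20. Vegfa rose by 0.76. Slc2a1, the basal glucose transporter, was at 200.3, 184 and 228 FPM in GM and 246, 232 and 236 FPM in DM3 and was not called (adjusted p = 0.268).

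Few cholesterol synthesis genes were called. They were 3 of 27, Mvk and Ebp lower and Insig2 higher, against 58.2% of all genes, and the median was -0.16 (-0.09 without control GM replicate 1). Without control DM3 replicate 2, 2 rose. Srebf2 was not called (adjusted p = 0.434). Srebf1 (adjusted p = 0.0672) missed the threshold, and passed it with the replicate number as a block (adjusted p = 0.0214), in which 7 members of the list fell, and in edgeR (adjusted p = 0.0498), in which 4 fell. With the compared groups alone 6 fell and Srebf1 was called (adjusted p = 0.0288). Of the 18 cholesterol efflux genes 6 rose and 2 fell (1 without control GM replicate 3, and 4 with the block), the rises including the lysosomal carrier Npc2 (1.59) and Mylip, a ubiquitin ligase induced by Lxr (2.02). Fatty acid and glyceride synthesis had 5 higher and 9 lower of 25. Elovl6 fell by 1.39, Lpin1 rose by 1.36, and Acsl3 rose by 1.03, which was not called without control GM replicate 3 (adjusted p = 0.0851) or DM3 replicate 1 (0.0555). Only 2 members were called higher without control GM replicate 3.

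Antioxidant genes fell more often than they rose, 21 against 6 of 46 (median -0.35). Without control GM replicate 1 the median was -0.18, with 18 lower and 8 higher. Gclm, the regulatory subunit of the enzyme that starts glutathione synthesis, measured 155, 123 and 154 FPM in GM and 41.7, 41.7 and 34.8 FPM in DM3 (log2 change -1.84 ± 0.16, adjusted p = 3.15e-07). Nqo1, a quinone reductase and classic Nrf2 target, measured 41.7, 25.8 and 28.6 FPM in GM and 9.6, 7.2 and 7.94 FPM in DM3. Of the rises, the selenium carrier Sepp1 was the largest (2.25), and without control GM replicate 3 only 3 genes were called higher. The core of the Nrf2 element, TGACNNNGC on either strand, occurred in 12 of 38 windows of the list (31.58%), in 8 of the 18 that fell and 0 of the 5 that rose. The share was 13.99% over all windows, 16.84% over those of tested genes and 16.98% over those of all genes that fell. Gclm and the thioredoxin reductase gene Txnrd1 (-0.74) carry it on the reverse strand, as the capitals show:
Gclm (chr3:122245373-122245481, plus strand): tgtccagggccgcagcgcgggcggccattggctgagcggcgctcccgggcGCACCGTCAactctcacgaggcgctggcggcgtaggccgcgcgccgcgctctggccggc
Txnrd1 (chr10:82859064-82859172, plus strand): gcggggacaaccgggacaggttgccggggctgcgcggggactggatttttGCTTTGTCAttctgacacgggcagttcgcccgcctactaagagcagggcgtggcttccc

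Of 36 chaperone and stress genes of the endoplasmic reticulum, 10 rose (27.8%) and 8 fell (22.2%), against 29.6% and 28.6% of all genes tested. Hspa5, the central chaperone BiP, measured 1880.0, 1569 and 1067 FPM in GM and 1140.3, 1020.3 and 964 FPM in DM3 and was not called (adjusted p = 0.207). It was called with the replicate number as a block (adjusted p = 0.0404), where 14 of the list fell. Without control GM replicate 1 only 4 fell, and without DM3 replicate 3 only 5. Crebrf rose by 2.68, Ero1l by 1.08, and Sdf2l1 fell by 1.12. The 33 p53 target genes had 9 higher (27.3%) and 9 lower (27.3%), also near the shares of all genes. Trp53inp1 rose by 2.26, whereas Gtse1, which also peaks in dividing cells, fell by 3.11.

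Brakes on the cell cycle rose in part. Of 31 quiescence genes and inhibitors, 16 rose and 6 fell (median 0.55). Cdkn1a, the inhibitor p21, measured 193, 177 and 163 FPM in GM and 359, 364 and 366 FPM in DM3 (log2 change 1.03 ± 0.26, adjusted p = 0.00322), and Cdkn1b, p27, rose by 0.91. Cdkn1c, p57, which is prominent in differentiating muscle, was below the filter, with 3 reads in 1 GM library and 0 in the other 5. The Myc antagonist Mxd4 rose by 2.20 and the unconventional cyclin Ccng2 by 2.35. Mxd3, the one family member tied to dividing cells, fell by 2.74.

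Immediate early and ERK feedback genes were not called more often than genes at large. Of 50, 13 fell (26%) and 10 rose (20%), against 28.6% and 29.6% of all genes tested. Ccnd1, cyclin D1, measured 443, 490.3 and 569 FPM in GM and 159.7, 100.4 and 124 FPM in DM3 (log2 change -1.98). Etv4, Hbegf, Fosl1 and Ereg fell by 1.41 to 1.72. Nr4a1, in contrast, rose, at 10.1 to 20.3 FPM in GM and 139.5 to 195 FPM in DM3, and Zfp36l1, which promotes mRNA decay, rose by 2.68. Fos varied widely between replicates, at 116, 29.9 and 5.85 FPM in GM and 204, 149 and 42.9 FPM in DM3, and Egr1 at 519.6, 282 and 170.0 FPM in GM and 809.7, 702 and 425 FPM in DM3. Both groups overlapped and neither gene was called (adjusted p = 0.121 and 0.0523). Within replicate numbers both were higher in DM3 in 3 of 3 pairs and were called with the block (adjusted p = 0.00803 and 0.00381). Without control GM replicate 1 they were called too (adjusted p = 0.0289 and 0.0157), and so was Egr1 without DM3 replicate 3 (adjusted p = 0.0353), in DESeq2 (adjusted p = 0.0289) and with equal sums or quantile normalization (adjusted p = 0.0476 and 0.0483).

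On the receptor side, 13 of 36 genes of the FGF, PDGF, EGF and HGF pathways rose and 5 fell. The ligand Hgf measured 20.1, 20.1 and 12 FPM in GM and 86.6, 95 and 119 FPM in DM3, and Fgf10 rose by 2.29. Ghr, the growth hormone receptor, rose by 2.20. In the IGF pathway 10 of 21 rose and 0 fell (median 0.79), while 1 fell without control GM replicate 3 or DM3 replicate 1, with the block and in both count tests. The receptors Igf1r (1.05), Insr (1.13) and Igf2r (1.61) and the adapters Irs1 (0.92) and Irs2 (0.93) all rose. Igfbp5, a binding protein known to rise in differentiating myoblasts, measured 35.5, 47.7 and 6.36 FPM in GM and 294, 201 and 308 FPM in DM3, a change of 3.49, or 2.65 without control GM replicate 3. Both ligands were at low levels. Igf1 measured 0.956, 0.867 and 0.108 FPM in GM and 3.8, 0.73 and 0.424 FPM in DM3 (adjusted p = 0.407). Igf2 measured 0.188, 0.106 and 0.154 FPM in GM and 0.73, 0.967 and 2.28 FPM in DM3, with every DM3 library above the GM libraries. It was not called on log2(FPM + 1) (adjusted p = 0.0812), but was with a pseudocount of 0.5 (adjusted p = 0.0226), with the block (adjusted p = 0.0102) and on recovered reads in edgeR (log2 change 3.09, adjusted p = 0.00581) and DESeq2 (3.17, adjusted p = 4.54e-05). H19, the noncoding RNA beside Igf2, measured 426, 440.3 and 109 FPM in GM and 527, 1124 and 1657 FPM in DM3. Its call (1.86, adjusted p = 0.00891) was lost with the block (adjusted p = 0.0624), without control GM replicate 3 (1.20, adjusted p = 0.0631) and without DM3 replicate 3 (adjusted p = 0.0511).

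TGF-beta, BMP and activin genes rose in 19 of 42 cases and fell in 4, by small steps (median 0.15, or 0.23 without control DM3 replicate 2 and 0.09 without DM3 replicate 3), with the receptor Tgfbr2 (1.12), its transducer Smad3 (1.15) and the ligand Tgfb3 (1.06) ahead. Wnt and Notch genes had 11 higher and 5 lower of 47. Notch3 measured 43, 67.7 and 23.5 FPM in GM and 137, 176 and 219 FPM in DM3 and Notch2 rose by 1.12, while Lfng, which glycosylates Notch, fell by 1.65. Targets of Yap and Tead did not act as a unit (14 higher, 4 lower of 29). Ctgf fell, at 246 to 648 FPM in GM and 64.2 to 105 FPM in DM3, but Cyr61, its close relative, measured 579.7, 694 and 699 FPM in GM and 887, 739 and 566 FPM in DM3 and was not called (adjusted p = 0.635). F3 rose by 1.44 and Gadd45a by 1.65 (2.30 without control GM replicate 2). SRF and MRTF targets of the cytoskeleton had 14 higher (33.3%) and 11 lower (26.2%) of 42, near the 29.6% and 28.6% of all genes. The smooth muscle proteins Tagln and Tagln2 fell by 2.31 and 2.26, and the myosin light chain kinase Mylk rose by 1.83. Srf was not called (adjusted p = 0.339).

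Extracellular matrix genes changed unevenly. Of 44 glycoproteins and proteoglycans 20 rose and 6 fell (median 0.53). Fn1, fibronectin, measured 2198, 5888 and 4277 FPM in GM and 10065, 17786 and 19494 FPM in DM3 (log2 change 1.99 ± 0.50, adjusted p = 0.00277), and Thbs1, thrombospondin, rose by 2.23. Ogn, osteoglycin, measured 401, 459.6 and 78.9 FPM in GM and 1707, 2867 and 2172 FPM in DM3, and Dcn, decorin, 28, 19 and 5.19 FPM in GM and 242, 126 and 190.0 FPM in DM3. For both, control GM replicate 3 was far below the other GM libraries, and without it the changes of 3.16 and 3.56 became 2.35 and 2.91. Fibrillar and other interstitial collagens stood apart from this, with 4 higher and 3 lower of 18 and a median of 0.01, which was -0.05 to 0.08 with 1 control library left out. Only 2 rose without control GM replicate 3, DM3 replicate 1 or DM3 replicate 3. Col1a1 was at 1874, 2871 and 1900.2 FPM in GM and 1689, 1849 and 2246 FPM in DM3 (adjusted p = 0.647). Col3a1 was called higher at 0.85 (adjusted p = 0.0402), a call that was lost without control GM replicate 3 (0.56, adjusted p = 0.201) and without any 1 of the DM3 replicates (adjusted p = 0.0568 to 0.0931). Col6a1 rose by 1.55 while its partner Col6a3 fell by 1.03.

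Basement membrane genes had 9 higher and 3 lower of 21. Agrn, agrin, measured 44.7, 86.9 and 43.9 FPM in GM and 642, 772 and 712 FPM in DM3 (log2 change 3.65 ± 0.23, adjusted p = 1.24e-08), and Col18a1 and Col4a5 rose by 1.97 and 1.73. Of the genes that process and crosslink collagen, 9 rose and 5 fell of 28. Tgm2, transglutaminase 2, measured 8.02 to 10.1 FPM in GM and 70.1 to 155 FPM in DM3, and Plod2 rose by 1.51. Lox, lysyl oxidase, hardly differed in level, at 897, 904 and 883 FPM in GM and 933, 937 and 850.1 FPM in DM3 (adjusted p = 0.949). Without control DM3 replicate 2 only 3 of the list fell. Among matrix proteases and their inhibitors 18 rose and 4 fell of 33 (median 0.69). With Adamts4 at 6.52, 7.59 and 4.52 FPM in GM and 94.7, 137 and 150.3 FPM in DM3, Adamts7, Adamts5, Adamts1 and Adamts6 rose as well, by 1.37 to 2.22. Mmp2, a gelatinase, rose by 2.28 and Mmp19 by 2.48. Adam12, a protease of fusing myoblasts, fell by 2.69, and the inhibitor Timp1 by 1.41.

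Complement and acute phase genes rose in 11 of 18 tested cases, with 2 lower (Ptx3 and C3ar1) and a median of 0.91. On recovered reads the median was 2.03 in edgeR and 2.09 in DESeq2. None fell without control DM3 replicate 2, and 1 fell without DM3 replicate 3 or any 1 of the GM replicates. C1s1, a protease of the first complement component, measured 24.9, 20.4 and 7.19 FPM in GM and 131, 129 and 139 FPM in DM3, and its partner C1ra rose by 2.07. The scavenger receptor Colec12 rose by 2.34. Chemokine and cytokine genes had 15 higher and 2 lower of 34 (Clcf1 and Il17ra), and 4 were lower without control GM replicate 1 or with the block and 1 without GM replicate 3. Ccl8 measured 0.23 to 0.632 FPM in GM and 15.9 to 19 FPM in DM3, and the oncostatin M receptor Osmr rose by 2.24. Ccl9 rose by 2.15, or by 2.78 without control GM replicate 2, and was not called without control GM replicate 3 (1.39, adjusted p = 0.0802). The interferon list rose in the same libraries, and its part in the rise of these genes was not tested.

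Muscle genes changed in an uneven way. Of 18 tested myogenic regulators, 10 rose and 3 fell (median 0.55). Eya1, a transcriptional coactivator that acts upstream of the myogenic factors in the embryo, rose by 1.46. Tcf4, an E protein that pairs with those factors, rose by 1.56. The 3 that fell, Id2 (-2.66), Id3 (-1.06) and Twist2 (-1.49), all restrain myogenic factors. Myog, which normally appears within the first day or so of differentiation, measured 0.0683, 0.0177 and 0 FPM in GM and 0.192, 0.434 and 0.405 FPM in DM3. It was not called on log2(FPM + 1) (adjusted p = 0.491), although the groups did not overlap. It was called with the block (adjusted p = 0.0216), with a pseudocount of 0.1 (adjusted p = 0.0104) and on recovered reads in edgeR (log2 change 3.49, adjusted p = 0.0326) and DESeq2 (3.63, adjusted p = 7.92e-04). In reads it reached at most 22 in a DM3 library.

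Among 39 tested contractile, fusion and coupling genes, 16 rose, 3 fell (1 without control GM replicate 3) and 20 were not called. Acetylcholine receptor subunits were among the rises. Besides Chrng, the delta subunit gene Chrnd measured 12.5, 21.5 and 9.08 FPM in GM and 74.7, 128 and 153 FPM in DM3 and the alpha subunit gene Chrna1 13, 15.1 and 16.7 FPM in GM and 70.7, 121 and 101 FPM in DM3. Of 10 tested genes of the postsynaptic side of the neuromuscular junction, grouped after their values were seen, 8 rose. Beside the 3 receptor subunits and Agrn these were Lrp4, the agrin receptor (2.92, at 9.82 to 15 FPM in GM and 78 to 120.2 FPM in DM3), Rapsn, which anchors the receptors (2.10), and, near the floor, Musk (0.48) and Ache (0.50). Chrnb1 and Dok7 were not called. Of the sarcomere, Tnnt1 and Myom2 rose (3.34, at 1.83 to 7.72 FPM in GM and 40.6 to 68.3 FPM in DM3), and Des, desmin, rose by 1.68. Myh3, the embryonic myosin heavy chain, remained at 0.358, 0.354 and 0.215 FPM in GM and 0.461, 0.375 and 0.497 FPM in DM3 (adjusted p = 0.823). Acta1, the actin of the muscle fibre, and Tnnt2 fell, by 1.93 and 1.59. Trdn, Capn3 and Klhl41, muscle genes in no list and named after their values were seen, rose by 2.74, 2.60 and 2.26.

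The E-box CAGCTG, the same on both strands and a word that myogenic factors prefer, was searched after values had been seen. It occurred in 14 of 28 windows of this list (50%), in 7 of the 12 whose gene rose and in both of the 2 whose gene fell. The share was 18.29% over all windows and 21.73% over those of all genes that rose. Chrng and Chrna1 each hold 2 copies upstream of the start site, in capitals here:
Chrng (chr1:87205606-87205734, plus strand): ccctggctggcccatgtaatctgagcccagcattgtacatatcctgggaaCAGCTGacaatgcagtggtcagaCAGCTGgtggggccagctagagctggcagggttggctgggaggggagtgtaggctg
Chrna1 (chr2:73580339-73580480, minus strand): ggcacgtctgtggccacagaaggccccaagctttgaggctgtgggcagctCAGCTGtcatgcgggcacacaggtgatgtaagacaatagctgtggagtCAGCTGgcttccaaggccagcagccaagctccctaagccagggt

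**Figure D4:**
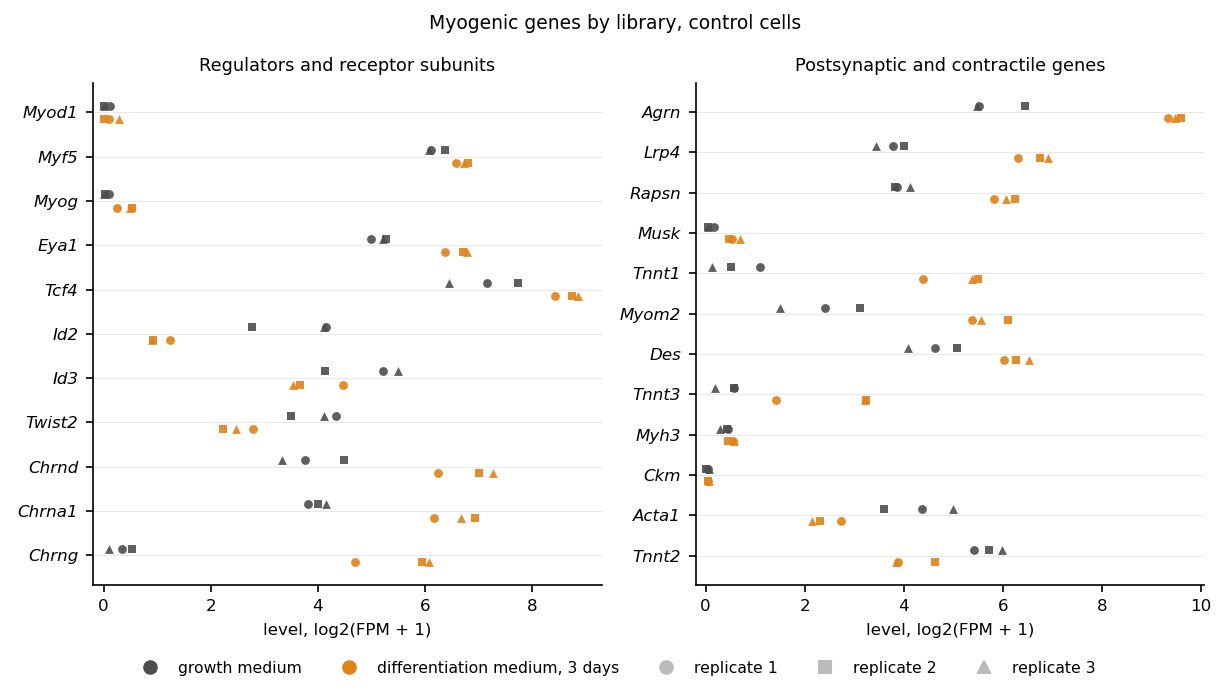
Level in each control library, on log2(FPM + 1), of myogenic regulators, acetylcholine receptor subunits, postsynaptic genes and contractile genes. Receptor genes, Agrn, Lrp4 and Rapsn are higher in all DM3 libraries (orange), while Myod1, Myog, Myh3 and Ckm stay close to 0 in both media.

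Markers of other mesenchymal fates moved without a common pattern. Chondrogenic, osteogenic and tendon genes had 9 higher and 3 lower of 19. The lower count was 0 without control DM3 replicate 1 or 2 and with no filter on low values, and 1 without any 1 of the GM replicates. Mgp, an inhibitor of calcification, measured 38, 21 and 6.05 FPM in GM and 122, 129 and 158 FPM in DM3 (2.91, or 2.22 without control GM replicate 3), and Phex, a bone peptidase, 38.6, 42.5 and 19.1 FPM in GM and 180.3, 221 and 247 FPM in DM3. Runx2, the osteoblast regulator, was not called (adjusted p = 0.6), and the bone gene Ibsp had 0 reads. Of 14 adipogenic genes 7 rose and 3 fell. The lipid droplet protein Plin4 rose by 1.96, the fatty acid carrier Fabp5 fell by 2.46, and Pparg, the adipocyte regulator, fell by 0.58, a call lost with the block (adjusted p = 0.0681) and without control GM replicate 1 or 3 or DM3 replicate 1 or 3 (adjusted p = 0.065 to 0.117). Pdgfra rose by 0.45 (adjusted p = 0.0495), a call lost with the block (adjusted p = 0.0864) and without control GM replicate 2 or 3 or DM3 replicate 1 or 3 (adjusted p = 0.0741 to 0.184).

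Neuronal and axonal genes had 16 higher (38.1%) and 11 lower (26.2%) of 42, against 29.6% and 28.6% of all genes. While both neurofilaments fell, the microtubule proteins Mapt and Stmn1 moved apart, Mapt rising by 2.61 and Stmn1 falling by 3.15. The list of keratins, desmosomal and epithelial genes also holds Vim, Zeb1, Zeb2 and Snai1, which belong to mesenchymal cells. It had 4 higher (Zeb1, Jup, Snai1 and Zeb2) and 6 lower of 20. Vim, vimentin, was the most abundant member at 9365, 6701 and 10522 FPM in GM and 3485, 2753 and 2955 FPM in DM3. Krt80 fell by 2.16. Of 12 tubulin genes 9 fell and 2 rose (Tubb2b and Tubb4a), with a median of -1.47. Primary cilium genes had 21 higher and 11 lower of 65, 7 lower without control DM3 replicate 2. Tmem231, of the transition zone, rose by 1.71, and Gli1, the Hedgehog target, fell by 1.77. Clock genes had 8 higher and 3 lower of 22 (1 lower without control GM replicate 3 or DM3 replicate 3), with Dbp at 1.27, Bhlhe40 at 1.23 and Bhlhe41 at 1.54. Of 27 steroid-responsive genes 12 rose, but the glucocorticoid targets Fkbp5 and Sgk1 were the 2 that fell, by 1.81 and 1.73 (4 fell without control GM replicate 2). Dhrs3, a retinoid reductase, rose by 2.69 (1.97 without control GM replicate 3 and 3.39 without GM replicate 2).

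The same change of medium was made in the MUNC overexpressing lines, with libraries of their own. Of the 8078 genes called in control cells, 47.2% were called in the same direction in MUNC spliced cells, where 17.2% of all genes were called higher and 18.4% lower, and 66.6% in MUNC genomic cells (26.3% higher and 25.1% lower). Opposite calls were made for 0.953% and 1.21%. The difference between responses was tested as an interaction, MUNC minus control. It was called for 1993 genes (14.4%, 1030 or 7.43% higher and 963 or 6.94% lower) in MUNC spliced cells and for 1222 genes (8.81%, 494 or 3.56% higher and 728 or 5.25% lower) in MUNC genomic cells. The spliced count was 1093 without control DM3 replicate 2, 1063 without control DM3 replicate 3 and 1203 without MUNC spliced GM replicate 2, and the genomic count was 784 without control DM3 replicate 2. The share of higher interaction calls in MUNC spliced cells, 51.7%, was 41.4% after scaling to equal sums and 62.1% in edgeR. Both interactions share the control libraries.

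Most of the control response described above was matched in direction by the list medians of the other lines. Lysosomal genes had a median of 0.89 in control, 0.67 in MUNC spliced and 0.86 in MUNC genomic cells. FoxO targets had 0.68, 0.57 and 0.55, and complement genes 0.91, 1.08 and 1.03. The respiratory chain had -0.40, -0.39 and -0.19. Biosynthetic lists were not alike in this. Cytosolic ribosomal proteins had -0.41, -0.53 and -0.55, with 1 of 82 interactions called in MUNC spliced cells and 0 in MUNC genomic cells, and fatty acid and glyceride synthesis had 4 and 2 of 25 called. One-carbon, serine and Atf4 genes had a median of -0.81 in control and -0.62 in MUNC genomic cells but 0.26 in MUNC spliced cells, and 36 of the 48 had an interaction called higher there (7.43% of all genes). For ribosome biogenesis the medians were -1.32, -0.44 and -0.99, with 40 of 77 interactions called higher in MUNC spliced cells and 1 in MUNC genomic cells. The 40 became 22 without control DM3 replicate 3, 26 without control GM replicate 3 and 23 without MUNC spliced GM replicate 2. The library means of that list in MUNC spliced cells were 5.97 to 6.56 in GM and 5.73 to 5.98 in DM3, against 6.58 to 7.04 in GM and 5.38 to 5.53 in DM3 in control cells. Contractile genes, with a median of 0.27 in control, had 2.03 and 1.5 in the MUNC lines, with 13 and 11 of 39 interactions higher and 4 and 1 lower. On recovered reads the 3 medians were 1.38, 3.02 and 2.31 in DESeq2, with 10 and 10 interactions higher, while edgeR called 6 in each line. MUNC spliced DM3 libraries were far apart, with list means of 3.72 to 5.32 against 2.34 to 2.74 in control DM3, and without MUNC spliced DM3 replicate 2 the higher count was 21. Interferon genes had 2.69, 2.48 and 0.45, with 122 of 153 interactions lower in MUNC genomic cells (5.25% of all genes; 71 in edgeR). Cholesterol synthesis had -0.16, -0.38 and -0.98, with 0 of 27 interactions called in MUNC genomic cells and 1 in MUNC spliced cells. The former became 12 lower with the compared groups alone and 16 with the block, and the latter 10 lower without MUNC spliced DM3 replicate 1.

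Genes with the largest control changes were also compared between lines. They were chosen for those changes, measured in the same control libraries, and that choice favours smaller changes elsewhere, so their interactions are given as a description. Nefm, at a mean of 161 ± 71.1 FPM in control GM (SD, n = 3), was already down to 0.112 ± 0.0455 FPM in MUNC spliced cells before the change of medium, and averaged 0.0116 FPM after it. From there log2(FPM + 1) leaves no room for a fall like the control one, and the interaction of 4.86 does not measure a difference in fold. On recovered reads it was not called by edgeR (2.44, adjusted p = 0.503) or DESeq2 (2.18, adjusted p = 0.196). The MUNC genomic means were 5.73 FPM before and 0.448 FPM after. Xdh rose by 0.96 in MUNC genomic cells against 4.25 in control cells (adjusted p = 8.35e-04), and Rgs2 was at 0.47, which was not called, against 4.05 (adjusted p = 0.00256, or 0.0643 in edgeR). Txnip, Cp and Bmf had no interaction called in either line.

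**Figure D5:**
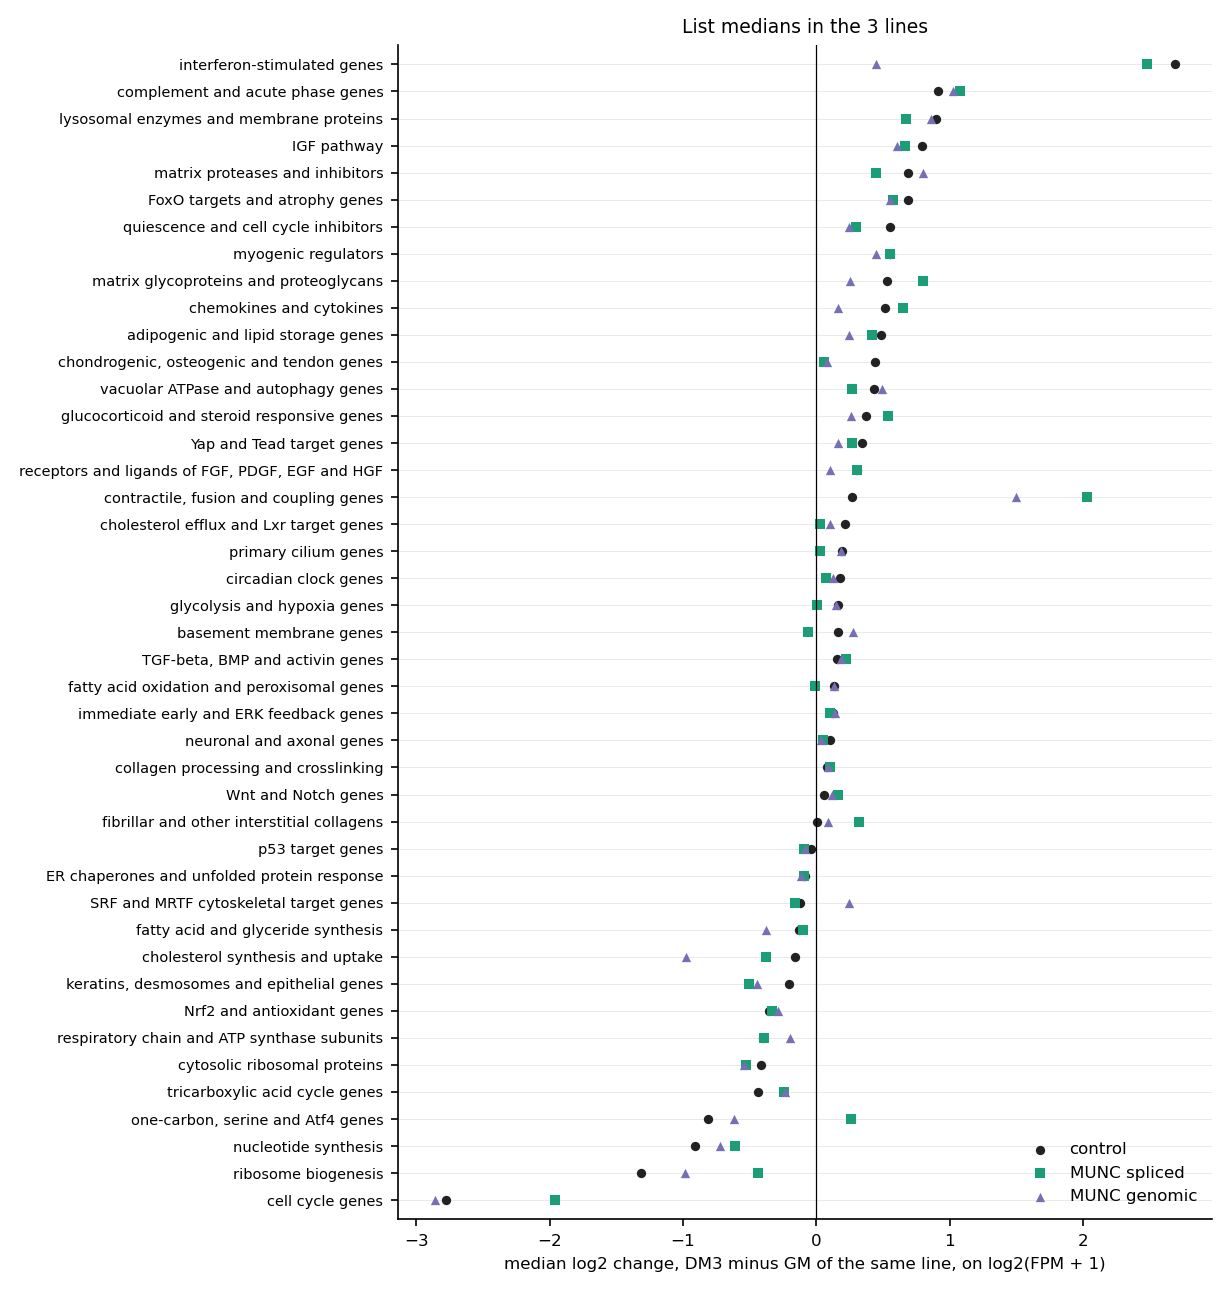
Median log2 change of each list, DM3 minus GM, in control, MUNC spliced and MUNC genomic cells. The one-carbon list lies at -0.81, 0.26 and -0.62, the contractile list at 0.27, 2.03 and 1.5, and the interferon list at 2.69, 2.48 and 0.45, while lysosomal medians lie within 0.67 to 0.89.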

How the data were processed

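The 18 C2C12 libraries were made from poly(A) RNA, per the labels. STAR, HTSeq and DESeq2 with mm10 are named in the submitters' processing notes, with no versions. Strandedness of the counting and the annotation are not given in the sources used here, so antisense or overlapping genes and close paralogs (ribosomal proteins, tubulins, histones, protocadherins) are uncertain. The authors deposited a table of FPM, a normalized signal per gene, for 35275 genes. These values gave whole reads for 100% of entries (within 0.05 of a read), so count tests were run on recovered reads as an alternative. From the authors' deposited table of log2 fold changes and adjusted p-values for control DM3 against GM, 7716 genes passed 0.05. Of these, 7344 were tested here and 7110 were called here, all 7110 in the same direction.

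The filter kept 13869 genes that reached 0.5 FPM in 3 or more of 18 libraries. Values as log2(FPM + 1) were fitted in limma 3.58.1 (R 4.3.3) with 6 group means over all 18 libraries (12 residual degrees of freedom), moderated with a trend, and Benjamini-Hochberg adjusted over all 13869 genes at 0.05. The fit was tested on simulated data. Interactions are contrasts of the same fit. edgeR 4.0.16, DESeq2 1.42.0, pseudocounts of 0.1 and 0.5, other filters and scalings, the compared groups alone, each library left out and a replicate block were alternatives. Same-numbered control libraries deviated together (r of 0.41, 0.20 and 0.23 over genes), and those of unlike numbers less (-0.35 to 0.07). The main fit holds no replicate block, so its p-values do not use this pairing. The pairing enters only where the block is named.

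The genes and the 43 lists were chosen with earlier results of these data known. Genes are named as the 12 highest and 12 lowest outside the cell cycle and interferon lists, the 3 largest called changes per list at 5 FPM or more, and a fixed list. The 12 highest and 12 lowest were taken among called genes with a name other than a clone name. Their groups had to be free of overlap and their higher group at 5 FPM or more. Families of gene names, other members of a list and genes in no list were picked after their values were seen. Of the list entries, 2135 were found and 13 were not. Promoter windows are RefSeq's on GRCm38.p6, matched by symbol for 9814 of the tested genes. Searched too, with no stretches printed, were the sterol element (1 of 19 windows of its list) and the Atf4 element (6 of 37). The interferon response element was in 52 of 117, the CArG box of SRF in 7 of 37 and the clock D-box in 1 of 18. Over tested genes the shares were 1.427%, 0.5706%, 3.689%, 1.661% and 0.6318%. The Atf4 element was in 3 of 22 windows whose gene fell and 1 of 4 whose gene rose. For the CArG box this was 0 of 7 and 4 of 14. Upper limits for 0 reads use 3 reads and cover counting error only. A few genes are not reported here.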

Additional observations from a re-analysis of the deposited data

Results flagged for a closer look

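The response to differentiation medium differed between lines, by the interaction term of the limma fit, for 1993 genes in MUNC spliced cells and 1222 genes in MUNC genomic cells. Among the 24 genes with the largest control changes, 16 interactions were called, each given here as MUNC minus control on the log2 scale, with the number of 22 alternatives in which it was not called. All use the same control libraries. The genes were chosen for the size of their control change, which favours smaller changes in the other lines, and all 16 interactions go that way. They are a description.

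In MUNC spliced cells, the rise was smaller for Chrng (-2.15, not called in 10), Adamts4 (-2.46, not called in 0) and Efemp1 (-2.83, not called in 0). The fall was smaller for Krt14 (2.28, not called in 8), Pcolce2 (2.29, not called in 0), Aunip (1.60, not called in 8) and Dscc1 (1.77, not called in 0). Nefm (4.86, not called in 2) and Nefl (2.60, not called in 3) began at 0.112 and 2.45 FPM in this line, against 161 and 265 FPM in control cells, so log2(FPM + 1) had little room to fall. Neither was called by edgeR (adjusted p = 0.503 and 0.427) or DESeq2 (adjusted p = 0.196 and 0.345).

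In MUNC genomic cells, the rise was smaller for Chrng (-2.03, not called in 17), Plac8 (-3.06, not called in 4), Xdh (-3.29, not called in 0), Rgs2 (-3.59, not called in 1) and Ifi47 (-2.37, not called in 15). The fall was smaller for Nefl (1.59, not called in 1). Nefm (2.80, not called in 1) went from 5.73 to 0.448 FPM, near the pseudocount, and edgeR did not call it (adjusted p = 0.0691).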

How the results depend on the processing

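The control count of 8078 became 2592 with a log2 change of at least 1 required, and was 7087 to 7879 with 1 control library left out. The interaction count of MUNC spliced cells (1993) was 1214 with the compared groups alone, 763 at a log2 difference of at least 1 and 1063 to 2434 with 1 library left out. That of MUNC genomic cells (1222) was 777 in edgeR, 601 at a difference of at least 1 and 784 to 1345 with 1 library left out. The cause was not tested. With the replicate number as a block the 3 counts were 8169, 1895 and 1708, and the calls it changed among genes named in the results are given there. Over 10 alternatives with all libraries, 1540 of 1550 values of 155 named, called genes kept their direction and call and 10, in 4 genes (H19, Col3a1, Pparg and Pdgfra), lost the call. With 1 library left out 905 of 930 did and 25 lost it, in 10 genes. Of 199 values of 20 genes not called, 22 became calls and 4 turned sign, in 11 genes, and with 1 library left out 3 of 120 became calls and 9 turned sign, in 8 genes. Myh3 was at -0.0135 and Hmgcs1 at 0.0303 with quantile normalization, Hmgcs1 at 0.0128 with equal sums, and Lox at -0.0192 in edgeR. With 1 library left out the ranges were -0.155 to 0.0892 for Hmgcs1, -0.00659 to 0.0639 for Lox, -0.0188 to 0.304 for Cyr61, -0.0219 to 0.855 for Igf1, -0.0149 to 0.256 for Runx2 and -0.296 to 0.0207 for Col1a1. Some list medians were larger in DESeq2: contractile 1.38 against 0.27, complement 2.09 against 0.91, basement membrane 0.70 against 0.16 and cholesterol efflux 0.70 against 0.22. Without a filter 25 ribosomal proteins fell and 2 collagens rose. With the compared groups alone, 6 cilium and 2 collagen-processing genes fell. All-gene medians moved by at most 0.03 with scaling. Genes under about 1 FPM are limited by the added pseudocount, and 3 libraries a group limit every test.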

Other observations

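Other gene families were grouped after their values were seen. Of 21 tested clustered protocadherins, adhesion proteins known from neurons, 19 rose and 0 fell, with a median log2 change of 0.95 (29.6% of all genes rose). Pcdhb17 was the highest at 1.72. Of 319 zinc finger genes named Zfp, 154 rose and 30 fell (median 0.32), and of 26 Hox genes, which set position along the body, 10 rose and 0 fell, with Hoxc6 at 1.06. That is 10 called of 26, against 58.2% of all genes. Of 21 clustered histone genes 13 rose and 4 fell, in poly(A) RNA, where replication-dependent histone messages are normally scarce. The linker histone gene Hist1h1c rose most, by 2.61.

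Iron genes moved in opposite directions. Tfrc, the receptor that brings iron in, fell by 3.08, and Slc40a1, ferroportin, which lets it out, rose by 2.94, with the ferroxidase Cp at 4.32. Of the 11 genes of this group 4 rose and 5 fell. The ferritin heavy chain gene Fth1 was not called and the light chain gene Ftl1 fell by 0.71.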
